A study of Mus musculus with 4 samples.

Results

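The 10 genes described here encode the granule proteases, the IgE receptor, the growth factor receptor and the histamine-forming enzyme by which mast cells and basophils are commonly recognised. They are Mcpt4, Cma1, Tpsab1, Tpsb2, Cpa3, Mcpt8, Ms4a2, Fcer1a, Hdc and Kit, taken by gene name from a table of 43346 mouse genes, in which each name had 1 row. Polyadenylated RNA was sequenced from mice carrying a transgene for IL-33 (libraries B and E) and from control mice (libraries D and F). All 4 libraries are labelled lung epithelial cells, although the series title speaks of lung tissue. The sources used here do not give the promoter of the transgene, the strain, the age or the number of animals per library. P-values therefore measure the spread between these libraries, which may be technical.

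Mast cells are resident granule-bearing cells of connective tissue and mucosa, and basophils are their rarer circulating relatives. Both carry IgE on a high-affinity receptor, and its cross-linking releases stored histamine and proteases. IL-33 is known to act on both cell types through the receptor encoded by Il1rl1. The proteases fall into chymases (Mcpt4, Cma1), tryptases (Tpsab1, Tpsb2) and a carboxypeptidase (Cpa3), all held in the granule on serglycin, while Mcpt8 is a protease of mouse basophils. Hdc makes histamine from histidine, and Kit is the receptor for stem cell factor.

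The libraries held 76120696 (B), 87723745 (E), 80764860 (D) and 85330145 (F) gene counts. Il33 stood at 1723 and 874 CPM (counts scaled to a common library size) in B and E and at 117 and 108 CPM in D and F, so both libraries labelled transgenic were the higher. On the first principal component (55.9% of the variance) E and F lay close together at 24.2 and 27.0, D at -7.69 and B apart at -43.5. The genotypes were thus not separated on it. Summed Y-linked RNA was 0.554% of that of D in B, 9.0% in E and 47.5% in F. Xist, the X-linked RNA of female cells, stood at 698 CPM (B), 811 (E), 1.19 (D) and 356 (F). Both transgenic libraries thus held more Xist and less Y-linked RNA than both controls, and F held much of each. The sources used here do not give the sex, so a difference of sex cannot be told apart from one of genotype. Markers of epithelium were abundant: the 8 alveolar type 2 genes listed summed to between 34892 and 58529 CPM. Other cells were present as well, since 8 endothelial genes summed to between 4024 and 6982 CPM and 4 pan-leukocyte genes to between 23.1 and 85.9 CPM. In such bulk RNA, fewer cells of a type and less RNA per cell cannot be told apart.

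In the GRCm38 coordinates of the table, the chymases and Mcpt8 lie in 1 cluster on chromosome 14, with Cma1 (ENSMUSG00000022225) at 55941453 to 55944661, Mcpt4 (ENSMUSG00000061068) at 56059744 to 56062310 and Mcpt8 (ENSMUSG00000022157) at 56082166 to 56085216, all on the minus strand. The tryptases are neighbours on chromosome 17, with Tpsab1 (ENSMUSG00000024173) at 25343245 to 25345562 on the minus strand and Tpsb2 (ENSMUSG00000033825) at 25366550 to 25368094 on the plus strand. On the minus strand of their chromosomes are also Cpa3 (ENSMUSG00000001865) at 20215620 to 20242181 of chromosome 3, Ms4a2 (ENSMUSG00000024680) at 11615523 to 11623719 of chromosome 19, Fcer1a (ENSMUSG00000005339) at 173221284 to 173227214 of chromosome 1 and Hdc (ENSMUSG00000027360) at 126593667 to 126619299 of chromosome 2. Kit (ENSMUSG00000005672) at 75574916 to 75656722 of chromosome 5 is on the plus strand. Counts cover whole genes, and all 10 are protein-coding in the GENCODE M21 annotation. The microRNA genes Mir6949 and Mir7007 lie inside Mcpt8 and Cpa3, and whether counting used strand is not given in the sources used here. Of the stretches of 50 bases in its transcripts, Mcpt4 shared 5.48% with Cma2, Cma1 5.38% with Gm48934 and Ms4a2 2.1% with Ms4a4b, so a small part of their counts is uncertain.

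Promoter sequences are shown for the 4 scarce members that were high in the same libraries (Mcpt8, Ms4a2, Fcer1a and Cpa3, whose values follow), to set their upstream letters side by side. Kit, an abundant gene, was also higher in those libraries and is not printed. They come from RefSeq (GRCm38.p6), which matched 8 of the 10 members. GATA1 and GATA2 are known regulators of mast cell and basophil genes and bind sites containing the letters GATA. Each strip runs 5′ to 3′ on the strand of the gene and ends at the base before the first annotated start. Capitals mark a GATAA on either strand, which on the printed strand can also read as TTATC. They also mark CATGTG, an E-box of the kind bound by MITF, or its reverse complement, which reads as CACATG. All 4 genes lie on the minus strand.

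Cpa3, chr3:20242182-20242431: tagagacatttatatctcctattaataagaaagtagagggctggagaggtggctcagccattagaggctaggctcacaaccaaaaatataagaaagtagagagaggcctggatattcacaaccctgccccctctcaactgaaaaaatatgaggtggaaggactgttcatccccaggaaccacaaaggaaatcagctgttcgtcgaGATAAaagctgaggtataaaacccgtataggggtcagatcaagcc
Ms4a2, chr19:11623720-11623969: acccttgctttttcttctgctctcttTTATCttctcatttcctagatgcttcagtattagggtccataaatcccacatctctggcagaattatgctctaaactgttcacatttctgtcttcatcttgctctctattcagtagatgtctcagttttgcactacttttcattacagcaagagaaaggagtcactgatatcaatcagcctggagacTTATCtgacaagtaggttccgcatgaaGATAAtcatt
Fcer1a, chr1:173227230-173227479: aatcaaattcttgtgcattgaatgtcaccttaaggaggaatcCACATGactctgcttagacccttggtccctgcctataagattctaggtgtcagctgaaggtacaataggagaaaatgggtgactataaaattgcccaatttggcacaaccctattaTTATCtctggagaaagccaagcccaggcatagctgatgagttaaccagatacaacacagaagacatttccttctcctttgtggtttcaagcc
Mcpt8, chr14:56085274-56085447: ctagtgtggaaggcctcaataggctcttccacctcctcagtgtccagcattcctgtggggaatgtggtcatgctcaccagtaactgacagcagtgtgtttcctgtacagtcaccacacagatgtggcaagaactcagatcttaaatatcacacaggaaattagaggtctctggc

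Cpa3 and Fcer1a each hold 1 GATAA and Ms4a2 holds 3, while no match was found in the 250 bases before the RefSeq start of Mcpt8. The strip of Mcpt8 is shorter, at 174 bases, because the GENCODE M21 annotation places its start further upstream than RefSeq does. Among all 8 members with an entry, 5 hold a GATAA in the 250 bases searched on both strands, the other 2 being Mcpt4 and Cma1, against 22.6% of 32817 promoters of that length. CATGTG was found in 1 of the 8 (Fcer1a), against 12.3% of promoters, and CACGTG, which reads the same on both strands, in 0 of the 8, against 6.02%. Hdc and Kit held none of the 3 motifs. The 250 bases searched for Hdc, however, lie wholly inside the gene as GENCODE M21 annotates it, and those for Kit in part. These matches describe letters only.

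The members fell into a pair of abundant genes and 8 scarce ones. Levels of different genes are compared here on the deposited RPKM, which divides by gene length. Kit, at 27.2 (B), 41.0 (E), 32.8 (D) and 40.0 RPKM (F), and Hdc, at 40.1, 30.4, 30.2 and 26.4 RPKM, stood far above the others. The highest value of any of the 8 other genes in any library was 2.84 RPKM, for Mcpt8 in F. In order of their mean over the 4 libraries there followed Mcpt8 (1.39 RPKM), Cpa3 (0.30), Ms4a2 (0.174), Cma1 (0.103), Mcpt4 (0.0906), Fcer1a (0.0762), Tpsb2 (0.0716) and Tpsab1 (0.0173). Neighbours in this order overlapped over the libraries, except Hdc and Mcpt8. Of the 10 genes, 4 had no count at all in at least 1 library.

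**Figure D1:**
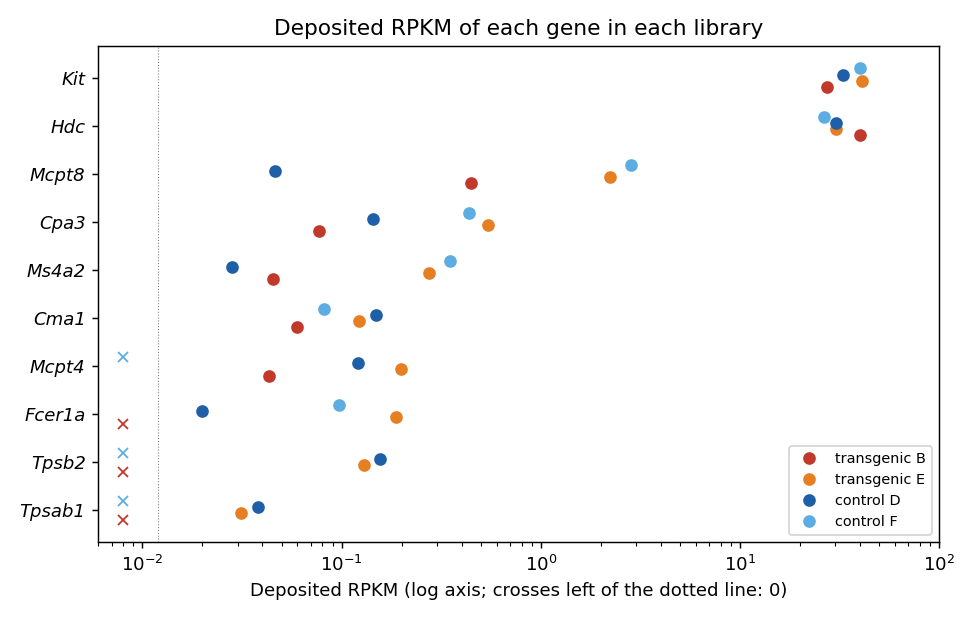
Deposited RPKM of the 10 genes (log axis), 1 point per library, with values of 0 drawn as crosses left of the dotted line. Kit and Hdc lie between 26.4 and 41.0 RPKM, and the other 8 genes at 2.84 RPKM or below.

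No member passed the test between genotypes. Of the 10 genes, 8 passed the filter on low counts, and 0 had an adjusted p under 0.05 when 20872 genes were tested by edgeR's quasi-likelihood fit, in which 0% of all genes were called. At an unadjusted p under 0.05 there were 0 members and 269 genes in all, and DESeq2 and limma-voom likewise called 0 members, with 0 at an unadjusted p under 0.05 by either. When the share of Y-linked RNA entered the edgeR fit, 3 members (Mcpt4, Tpsb2 and Mcpt8) had an unadjusted p under 0.05 and 0 an adjusted one. Of all 20872 genes, 80 had an unadjusted p under 0.05 in that fit. It leaves 1 residual degree of freedom, and Mcpt4 and Tpsb2 had counts of 0 in at least 1 library, so these p-values are weak grounds. For 0 members did both transgenic libraries lie above both controls (11.9% of genes tested did) and for 0 did both lie below (12% of genes). The 8 log2 fold changes were split, 3 above 0 and 5 below, with a median of -0.11 beside -0.0013 for all genes tested. Of all 20872 genes tested, 10351 had a value above 0. When 1 library was left out, the sign turned for 7 of the 8 genes, all but Hdc, under at least 1 such choice. With 2 libraries against 2, an exact two-sided permutation test cannot give a p below 0.333.

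**Figure D2:**
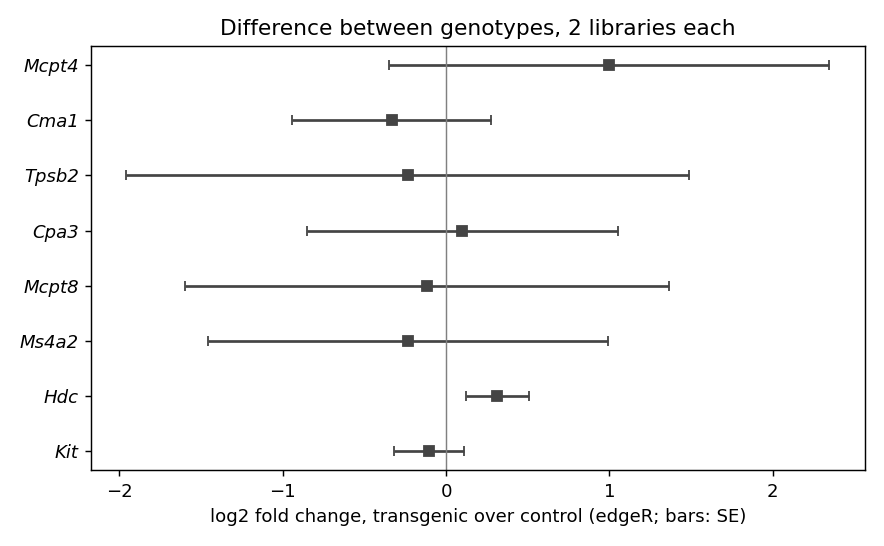
Log2 fold change of the 8 members tested, transgenic over control (squares, edgeR, 2 libraries per genotype), with standard errors as bars. The bars of Hdc and Kit are narrow and those of the 6 scarce genes span from 0.61 (Cma1) to 1.72 (Tpsb2) on either side.

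The chymases of connective tissue mast cells were close to the detection limit. Mcpt4 (mMCP-4, the main chymase of such cells in mice) gave 4 counts (B), 21 (E), 12 (D) and 0 (F), that is 0.053, 0.237, 0.149 and 0 CPM. In library F, 3 counts would equal 0.0352 CPM, and the exact 95% Poisson interval of its 0 counts reached 0.0433 CPM. The highest and the lowest library of the transgenic group enclosed control D, and its log2 fold change was 1.0 (SE 1.35, adjusted p = 1.0 by edgeR). Cma1, the mouse alpha-chymase also called mMCP-5, gave 6 counts (B), 14 (E), 16 (D) and 9 (F), or 0.0794, 0.158, 0.199 and 0.106 CPM. The exact Poisson intervals of all 4 libraries shared the range from 0.113 to 0.173 CPM, so the differences of Cma1 between libraries lay within counting error. Intervals and limits of this kind cover counting error only.

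The tryptases were present in 1 library of each genotype and absent from the count of the others. Tpsab1 (mMCP-7) gave 7 counts in E and 8 in D, and Tpsb2 (mMCP-6) 15 in E and 17 in D, while B and F had 0 counts of both. In CPM, Tpsb2 stood at 0.169 in E and 0.211 in D, where the limit set by 3 counts was 0.0397 CPM in B and 0.0352 CPM in F. Against that limit Tpsb2 was at least 4.81-fold higher in E than in control F, and at least 5.31-fold lower in B than in control D, which leaves out the counting error of the higher library. By the exact 95% intervals, E lay above 0.0947 and F below 0.0433 CPM, and D above 0.123 and B below 0.0488 CPM. The direction between genotypes thus depended on the libraries compared. The log2 fold change of Tpsb2 was -0.24 (SE 1.72, adjusted p = 1.0 by edgeR), and Tpsab1 did not pass the filter. These genes are close relatives. No stretch of 50 bases was identical between the GENCODE M21 transcripts of either and those of any other gene, although the read length is not given in the sources used here.

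Cpa3, the carboxypeptidase of both mast cells and basophils, ran with a different set of libraries. It gave 11 counts (B), 88 (E), 22 (D) and 68 (F) (0.146, 0.993, 0.273 and 0.798 CPM), so E and F were both high and B and D both low. The means were 0.569 ± 0.599 CPM with the transgene and 0.536 ± 0.371 without it (SD, n = 2 each). With B set against D and E against F, the ratio of transgenic to control was 0.533 for B over D (95% counting interval 0.234 to 1.15) and 1.24 for E over F (0.896 to 1.73). The labels give no such pairs. With the controls exchanged, B over F gave 0.182 (0.087 to 0.347) and E over D 3.64 (2.26 to 6.10), so the direction depended on the libraries compared. Its log2 fold change was 0.10 (SE 0.95, adjusted p = 1.0 by edgeR).

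Summed over Mcpt4, Cma1, Cpa3, Tpsab1 and Tpsb2, the serglycin-bound proteases gave 21 counts (B), 145 (E), 75 (D) and 77 (F). The sums were 0.278 and 1.64 CPM in the transgenic libraries, on either side of the control values of 0.931 and 0.904 CPM. The means, 0.957 ± 0.960 against 0.917 ± 0.0189 CPM (SD, n = 2 each), differed by a factor of 1.04 (exact two-sided permutation test, p = 1). Without library E the ratio fell to -1.73 on the log2 scale, and without B it was 0.84, so 1 transgenic library decided the direction. Across 17437 genes averaging at least 0.5 CPM, the patterns nearest to that of the sum over the 4 libraries belonged to Ppfia2, Bpifb1, Shc2, Pln and Gm28402. Their log2 values, centred on their own means, differed from those of the sum by a root mean square of 0.12 (Ppfia2) to 0.22 (Gm28402). None of the 5 stands in the gene lists used here.

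**Figure D3:**
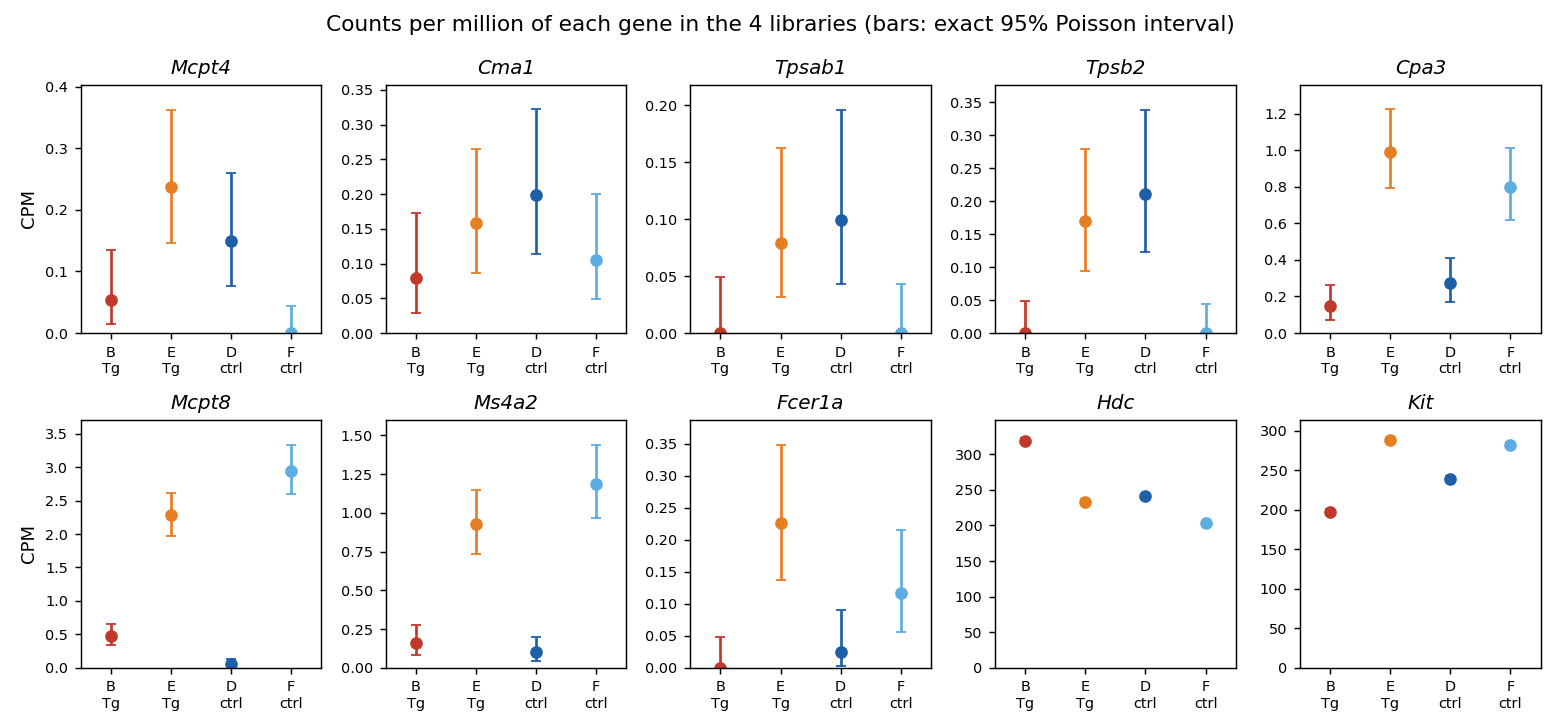
CPM of each gene in the transgenic (Tg) libraries B and E and the control (ctrl) libraries D and F, with exact 95% Poisson intervals as bars. Tpsab1 and Tpsb2 are at 0 in B and F, and Mcpt8, Ms4a2, Fcer1a and Cpa3 are higher in E and F than in B and D, so both patterns cross the genotypes.

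The basophil protease gene Mcpt8 varied more than any other member with a count in every library. It gave 36 counts in B and 202 in E, against 4 in D and 251 in F, or 0.477, 2.28, 0.0496 and 2.95 CPM. The highest and the lowest value were both in control libraries, 59.4-fold apart. Mcpt8 was 9.60 times as high in B as in D (95% counting interval 3.44 to 37.1), whereas E over F gave 0.774 (0.64 to 0.935). With the controls exchanged, B over F gave 0.162 (0.111 to 0.23) and E over D 45.9 (17.7 to 170). The group means were 1.38 ± 1.27 CPM with the transgene and 1.5 ± 2.05 without it (SD, n = 2 each), and the log2 fold change was -0.12 (SE 1.48, adjusted p = 1.0 by edgeR). Left-out libraries moved that log2 fold change both ways, to 4.76 without control F and to -1.66 without transgenic E. Each of these fits rests on a single library in the genotype concerned.

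The IgE receptor chains had the same libraries high. Ms4a2, the beta chain that amplifies the receptor's signal, gave 12 counts (B), 82 (E), 8 (D) and 101 (F) (0.159, 0.925, 0.0993 and 1.19 CPM). Its ratio was 1.60 for B over D (95% counting interval 0.601 to 4.51) and 0.78 for E over F (0.576 to 1.05). Both intervals include 1, while E exceeded D by a factor of 9.32 and B reached only 0.134 of F. Fcer1a, the IgE-binding alpha chain, gave 0 counts (B), 20 (E), 2 (D) and 10 (F), or 0, 0.226, 0.0248 and 0.117 CPM, and did not pass the filter. The log2 fold change of Ms4a2 was -0.23 (SE 1.22, adjusted p = 1.0 by edgeR).

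In 5 of the 10 members (Mcpt8, Ms4a2, Fcer1a, Cpa3 and Kit) both E and F lay above both B and D, an order shared by 4 of the 8 members tested and by 27.3% of all genes tested. That order was noticed in these data and has no test. Summed over Mcpt8, Ms4a2 and Fcer1a, the values were 0.635 CPM (B), 0.174 (D), 3.43 (E) and 4.25 (F). Leukocyte RNA did not follow it: the 4 pan-leukocyte genes (Ptprc, Coro1a, Laptm5 and Cd53) summed to 55.4 CPM (B), 23.1 (D), 85.9 (E) and 48.3 (F). Per 1000 counts of Ptprc, which encodes the pan-leukocyte antigen CD45, Mcpt8 stood at 23.1 (B), 6.04 (D), 75.9 (E) and 178 (F), and Ms4a2 at 7.70, 12.1, 30.8 and 71.7. Cpa3 stood at 7.06, 33.2, 33.1 and 48.3 on that scale and Fcer1a at 0, 3.02, 7.51 and 7.10. Control F was the highest library for Mcpt8, Ms4a2 and Cpa3 and E for Fcer1a, and for Cpa3 control D was no longer below E. Endothelial and fibroblast genes, whose sums are given with Kit and at the end, were also higher in E and F, and their part in these values was not tested.

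Other genes of mast cells and basophils were read beside the members, from lists drawn up from general knowledge. Of 9 further proteases, 7 matched a row, 2 passed the filter and 0 were called. Prss34, a tryptase of basophils, gave 5 counts (B), 12 (D), 24 (E) and 66 (F), and Ctsg, encoding cathepsin G of mast cells and neutrophils, 0, 11, 16 and 24. Their log2 fold changes were -1.42 (SE 0.99) and -1.15 (SE 1.18). For both, E and F were again above B and D, an order shared by 27.3% of all genes tested. Tpsg1 of the same list did not pass the filter and lacked that order, with 1 count (B), 8 (D), 7 (E) and 5 (F). Mcpt1, the chymase of mucosal mast cells, had 4 counts in B, 4 in F and 0 in the others, and Mcpt2 and Mcpt9 had 0 counts in all 4 libraries. Mrgprb2, the receptor by which mouse connective tissue mast cells respond to basic peptides, had 2 counts in E and 0 elsewhere.

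Among 15 further surface genes, 11 were tested and 0 called, with 8 log2 fold changes above 0 and 3 below (median 0.15). Il1rl1, the IL-33 receptor, stood at 1.51 CPM (B), 2.48 (E), 0.571 (D) and 1.89 (F), so the groups overlapped. Cd200r3, an activating receptor of mast cells and basophils, stood at 0.199, 0.496, 0.136 and 0.293 CPM. Il3ra, the alpha chain of the IL-3 receptor, and Enpp3, the basophil activation antigen CD203c, had both B and E below D and F. That order held for these 2 of the 11 tested and for 12% of all genes tested. The log2 fold changes of Il3ra and Enpp3 were -0.30 (SE 0.20) and -0.55 (SE 0.36). Csf2rb and Cd69 had values of 0.60 (SE 0.48) and 0.66 (SE 0.56). Il1rl1 and Cd200r3 are given for their roles, outside the rule of smallest p by which the other list genes are named.

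For the signalling chain below the IgE receptor, 0 of 15 genes were called, 9 had log2 fold changes above 0 (median 0.028), and for 4 both B and E exceeded D and F, as for 11.9% of all genes tested. These 4 were Ptpn6 (log2 fold change 0.34, SE 0.12), Lcp2 (0.80, SE 0.33), Vav1 (0.74, SE 0.37) and Fcer1g (0.80, SE 0.44). Fcer1g, the gamma chain that the IgE receptor shares with other Fc receptors of myeloid cells, stood at 3.02 CPM in B and 4.57 in E, against 1.38 in D and 2.99 in F. The receptor's own alpha and beta chains did not share that order. Pan-leukocyte genes were higher in both transgenic libraries for 3 of 4 (Ptprc 20.6 and 30.0 against 8.21 and 16.5 CPM). All 8 neutrophil genes listed were higher as well (sums of 19.8 and 32.4 against 11.3 and 12.7 CPM), and their part in the values of the signalling genes was not tested.

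Transcription factors of the lineage were not called either (0 of 10), with 4 log2 fold changes above 0, 6 below and a median of -0.18. Gata1, which is restricted to a few blood lineages, stood at 0.106 CPM (B), 0.429 (E), 0.199 (D) and 0.47 (F). Gata2, which endothelium also uses, stood at 56.7, 108, 85.1 and 120 CPM. The 4 with the smallest p were Runx1 (log2 fold change 0.29, SE 0.14), Lmo2 (-0.33, SE 0.20), Zfpm1 (-0.26, SE 0.16) and Tal1 (-0.32, SE 0.22). Of these, Lmo2 and Tal1 are also used by endothelial cells. Gata1 and Gata2 are named for their role.

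Hdc was abundant in every library, at 26.4 to 40.1 RPKM, above the histamine-degrading enzyme Hnmt (5.41 to 7.71 RPKM). Beside Srgn of the granule matrix, Hdc was slightly higher in B (40.1 against 37.8 RPKM). In E, D and F it was lower (30.4, 30.2 and 26.4 against 65.3, 47.5 and 64.2 RPKM). It gave 24078 counts (B), 20703 (E), 19410 (D) and 17360 (F), or 319, 234, 241 and 204 CPM. Library B was the highest, but transgenic E lay just below control D, so the groups overlapped. The means were 276 ± 60.2 CPM with the transgene and 222 ± 26.2 without it (SD, n = 2 each), with a log2 fold change of 0.31 (SE 0.19, unadjusted p = 0.165, adjusted p = 1.0 by edgeR). The ratio was 1.32 for B over D (95% counting interval 1.30 to 1.35) and 1.15 for E over F (1.12 to 1.17). Set against the other control, B over F gave 1.56 (1.53 to 1.59) and E over D 0.970 (0.951 to 0.989). With a term that set B and D apart from E and F, the log2 fold change was 0.30 (unadjusted p = 0.0154, adjusted p = 0.799 by edgeR). That term rests on earlier results of these data and not on the labels, so its p-values are no support for a difference.

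The order of Hdc over the libraries, B, D, E and F from highest to lowest, was also that of the 8 alveolar type 2 genes summed (58529, 48254, 38299 and 34892 CPM). It was not particular to them. The 5 pan-epithelial genes (1625, 1359, 1088 and 1075 CPM) and the 11 genes of granule storage and release (1523, 1294, 1215 and 1138 CPM) summed in the same order. As a share of the alveolar type 2 sum, Hdc stood at 0.545% (B), 0.61% (E), 0.499% (D) and 0.584% (F), again with overlapping groups. The part of alveolar type 2 cells in the level of Hdc was not tested. Slc18a2, the transporter VMAT2 that loads histamine into granules, varied little, from 3.30 to 3.87 CPM.

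Enzymes and receptors downstream of histamine were tested where they passed the filter: 3 of 6 did, 0 were called and all 3 had log2 fold changes above 0 (median 0.26). Hnmt, which inactivates histamine by methylation, stood at 17.0 CPM (B), 12.3 (E), 12.9 (D) and 11.6 (F). Aoc1, the diamine oxidase, lay between 1.43 and 2.37 CPM, and the receptor gene Hrh1 between 0.106 and 0.237 CPM. The receptor genes Hrh2, Hrh3 and Hrh4 did not pass. Of 8 genes of lipid mediator and serotonin synthesis, 7 were tested, 0 called and 7 had log2 fold changes above 0 (median 0.25). Over all genes, 10351 of 20872 tested were above 0. In these 2 lists, both transgenic libraries exceeded both controls for 0 of the genes tested. The synthesis genes with the smallest p were Alox5ap (0.54, SE 0.35), Alox5 (0.90, SE 0.70), Pla2g4a (0.23, SE 0.19) and Hpgds (0.25, SE 0.30). Alox5 and its activating protein Alox5ap start leukotriene synthesis in many myeloid cells.

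Granule storage and release genes gave 0 calls of 11, with 8 log2 fold changes above 0 (median 0.037). Srgn, the serglycin core protein to which the proteases bind, stood at 103 CPM (B), 172 (E), 130 (D) and 171 (F), and so was abundant where its protease partners were scarce. Ctsc, the peptidase that activates granule proteases, stood at 813, 558, 634 and 503 CPM in the same libraries. Both genes are used by many other cells. Rab27b (0.36, SE 0.19), Rab27a (0.17, SE 0.16) and Stxbp2 (0.22, SE 0.23), all of vesicle release, had the smallest p values besides Ctsc (0.27, SE 0.24). Of 8 genes that inhibit or are acted on by chymase and tryptase, 7 were tested and 0 called (median -0.17). Those with the smallest p were Slpi (log2 fold change 0.23, SE 0.28), Timp1 (-0.19, SE 0.27), Agt (-0.37, SE 0.77) and Fn1 (-0.17, SE 0.35). F2rl1, the tryptase-sensitive receptor PAR-2, stood at 12.1 to 15.8 CPM.

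Kit was as abundant as Hdc, but library B was its lowest and not its highest. It gave 14902 counts (B), 25495 (E), 19234 (D) and 24023 (F), or 197, 288, 239 and 282 CPM. The transgenic libraries were the lowest and the highest of the 4 and enclosed both controls. The means were 242 ± 63.9 against 260 ± 30.6 CPM (SD, n = 2 each), with a log2 fold change of -0.10 (SE 0.22, adjusted p = 1.0 by edgeR). The ratio was 0.827 for B over D (95% counting interval 0.809 to 0.844) and 1.02 for E over F (1.0 to 1.04). With the controls exchanged, B over F gave 0.699 (0.685 to 0.714) and E over D 1.21 (1.18 to 1.23). Kit is known from several lung cells besides mast cells, among them capillary endothelium and innate lymphoid cells.

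The 8 endothelial genes summed to 4024 CPM (B), 6404 (E), 5267 (D) and 6982 (F), so B was lowest, D next, and E and F highest, as for Kit. Kit made up 4.90% (B), 4.49% (E), 4.53% (D) and 4.04% (F) of that sum. The order was not particular to endothelium. Fibroblast and smooth muscle genes summed to 961 CPM (B), 1979 (E), 1431 (D) and 2347 (F), and 27.3% of all genes tested had E and F above B and D. The part of endothelial RNA in the level of Kit was not tested. Kitl, the stem cell factor that binds Kit, stood at 352, 612, 455 and 705 CPM in these libraries (log2 fold change -0.27, SE 0.34), and is named for its role. Of the 12 genes listed for Kit ligand and signalling, 0 were called, 7 had log2 fold changes above 0 (median 0.021), and for 3 both B and E exceeded D and F, against the same 11.9% of all genes. The smallest p values were those of Pik3cd (0.50, SE 0.25), Sos1 (0.12, SE 0.099), Socs1 (-0.32, SE 0.27) and Grb2 (-0.13, SE 0.12).

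**Figure D4:**
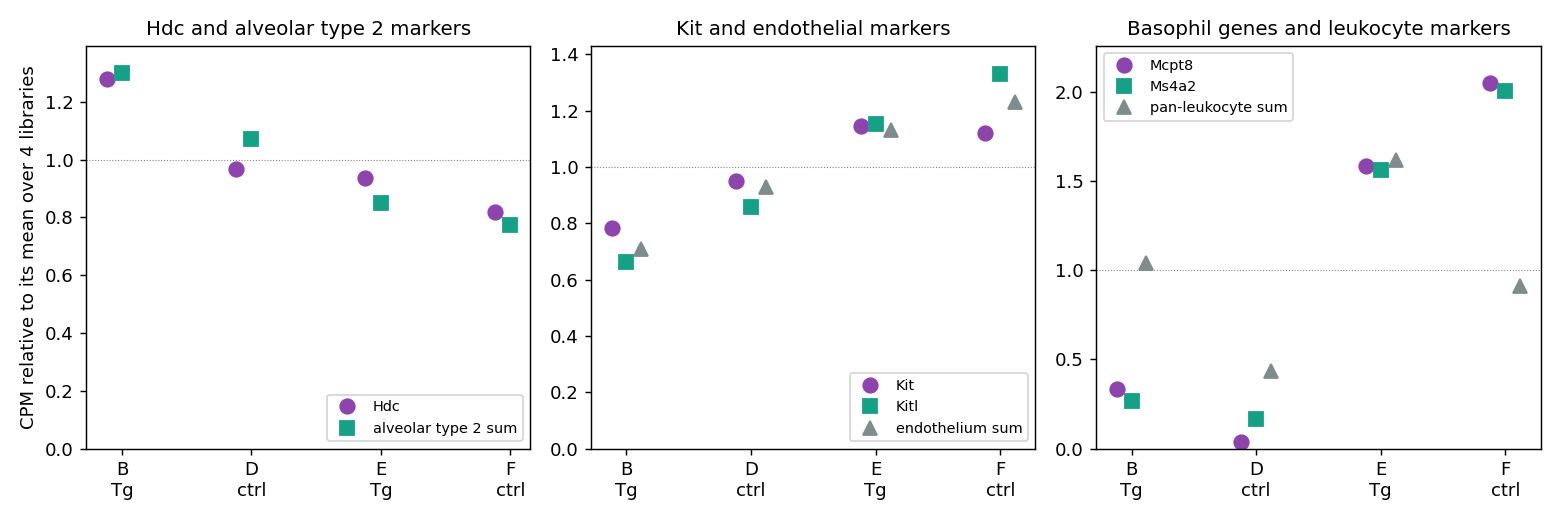
CPM of each gene or summed marker list relative to its own mean over the 4 libraries, in transgenic (Tg) and control (ctrl) libraries. Hdc falls from B to F with the alveolar type 2 sum (1.28 to 0.818 and 1.30 to 0.775), Kit is lowest in B (0.785) as are Kitl and the endothelial sum, and Mcpt8 and Ms4a2 lie low in B and D (0.331 or below) and high in E and F, unlike the pan-leukocyte sum.

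Lists of other cells that could carry these genes were measured in the same libraries, and 0 of their genes were called. The 7 fibroblast and smooth muscle genes summed to 961 CPM (B), 1979 (E), 1431 (D) and 2347 (F), and the 4 mesothelial genes to 131, 67.4, 182 and 54.8 CPM. Mesothelial RNA was thus higher in B and D, while Mcpt8, Ms4a2, Fcer1a and Cpa3 were lower there. The 8 genes listed for group 2 innate lymphoid cells summed to between 81.1 and 96.5 CPM. Most of that sum was Areg (32.7 to 55.8 CPM) and Rora (30.3 to 37.3 CPM), so it says little of the scarcer genes. Il1rl1 ranged from 0.571 to 2.48 CPM, Il7r from 0.534 to 1.59, Il5 from 0.0993 to 0.293 and Il17rb from 0.223 to 0.54. In the same list Il13, a cytokine that basophils and mast cells also make, stood at 0.212 CPM (B), 0.779 (E), 0.0496 (D) and 0.904 (F), and was singled out after its values were seen. The eosinophil granule genes Epx and Prg2 gave counts above 0 in F (0.282 and 0.47 CPM) and, for Prg2 alone, in B (0.0529 CPM), and were at 0 in D and E. Of the other 3 eosinophil genes listed, Ccr3 stood at 0, 0.0564, 0.062 and 0.141 CPM in B, E, D and F. Siglecf was highest in E (1.79, 6.24, 0.596 and 3.05 CPM), and Il5ra was lowest in F (0.278, 0.147, 0.248 and 0.117 CPM), so the 5 genes had no common order.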

How the data were processed

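Poly(A) RNA of 2 IL-33 transgenic and 2 control libraries was sequenced. The authors deposited whole-number read counts per gene, and beside them RPKM values, per the file headers. TopHat2 (version 2), Bowtie (version 1) and featureCounts (version 1) with mm10 (GRCm38) are named in the submitters' processing notes. Gene counts made up 80.3 to 82.7% of the read total implied by the deposited RPKM.

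From the counts, CPM on TMM-scaled library sizes and the quasi-likelihood test of edgeR (version 4.0.16 under R 4.3.3, legacy setting, Benjamini-Hochberg adjustment) were computed on all 4 libraries without covariates. The filter (filterByExpr, minimum count 10, minimum total 15) left 20872 of 43346 genes. An SE is |log2 fold change| over √F. Intervals are exact Poisson, or conditional binomial for ratios, at 95%. The fit was tested on simulated data with 200 genes changed. These were drawn above a mean level that most members do not reach, with the same spread set for every gene. Members below that level are not covered by it. Alternatives used limma 3.58.1 and DESeq2 1.42.0, other scalings and filters, left-out libraries and covariates.

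All 10 members are named, and of each list the 4 tested genes with the smallest p, unless the text says that a gene is named for its role. Further genes with low counts in the protease list, and Srgn, Slc18a2, Hnmt, Aoc1, Hrh1, Mrgprb2 and F2rl1, are given with their values as genes of the pathway. The 5 genes most like the protease sum were those averaging at least 0.5 CPM with the smallest root mean square difference of centred log2 (CPM + 0.1) values. The members and lists were chosen with earlier results of these data known.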

Additional observations from a re-analysis of the deposited data

How the results depend on the processing

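The number of members passing the test was 0 in all 13 alternatives. Over all genes, edgeR called 0 and DESeq2 called 1 (Il33), and leaving out 1 library gave from 0 (without D) to 15 (without E). Of 99 single-gene values, 76 kept direction and side of the threshold and 23 reversed. With limma-voom the log2 fold change was 1.38 for Mcpt8, -0.23 for Cpa3, 0.052 for Tpsb2 and 0.18 for Ms4a2. With a term separating B and D from E and F it was 0.52 for Mcpt8 and -0.13 for Cpa3. With the Y-linked share as covariate it was -1.19 for Cpa3, 1.05 for Cma1, -3.30 for Ms4a2, -4.79 for Mcpt8 (unadjusted p = 0.0492), 16.97 for Mcpt4 (0.00481) and 35.57 for Tpsb2 (0.00679), all with an adjusted p of 1.0 by edgeR. That fit leaves 1 residual degree of freedom, and with counts of 0 in F (Mcpt4) or in B and F (Tpsb2) these sizes are no bound. Leaving out 1 library gave ranges of -0.47 (without E) to 6.63 (without D) for Mcpt4, -1.66 (without E) to 4.76 (without F) for Mcpt8 and -1.88 (without E) to 1.07 (without F) for Cpa3. The ranges were -6.09 (without E) to 5.88 (without D) for Tpsb2, -0.93 (without E) to 0.18 (without D) for Cma1, -2.02 (without E) to 2.44 (without F) for Ms4a2 and -0.41 (without E) to 0.15 (without B) for Kit. With 0 counts in a genotype (Tpsb2 without D or E, Mcpt4 without D) such a value depends on the prior count. The log2 ratio of the summed proteases ran from -1.73 (without E) to 0.84 (without B). The cause of these reversals was not tested. A genotype left with 1 library was assumed to vary like the other. Hdc stayed above 0 in every alternative, from 0.07 (without B) to 0.54 (Y-linked share). No paired analysis was possible because the labels give no shared replicate numbers. The term separating B and D from E and F rests on earlier results of these data, not on a pairing in the labels. Counts of 0 to 21 for Mcpt4 and the tryptases limit what could be seen of them.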
